A study of Oryza sativa with 26 samples.

Results

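The transcripts described here had their highest levels in rice anthers (Oryza sativa) at the end of meiosis and in the microspore stage that follows it. They were chosen by their measured values. On log2(intensity + 1), averaged over the arrays of a stage, the lower of the M3 (diplotene to tetrad) and P1 (uninucleate gametophyte) means had to lie at least 1.5 above the highest mean of the other 6 stages. Of 57194 probe sets, 61 met this rule. They represent 44 genes through 48 probe sets, while 1 probe set names several genes and 12 name none. A symbol was given for 10 of the 44 genes. The other genes carry only a locus number, and no function is annotated for them in the tables used.

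The study profiled whole anthers on 26 Affymetrix Rice Genome Arrays over 8 stages: An1 (archesporial cells forming, 3 arrays), Mei1 (premeiotic S or G2 phase, 3), M1 (leptotene, 4), M2 (zygotene to pachytene, 3), M3 (4), P1 (3), P2 (bicellular pollen, 3) and P3 (tricellular mature pollen, 3). The labels name no genotype, cultivar or treatment. The plants stood in paddy fields at Mishima and were sampled from July to October. In the titles, replicates are named biological, with no word on whether plants, plots or days differed. Each value is an intensity divided by the 75th percentile of its own array, so 1 is the level of that percentile on every array. The number of arrays limits the precision. Since whole anthers were sampled, fewer cells of a type and less RNA per cell cannot be told apart.

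The tetrad and free microspore stages are when the pollen wall is laid down. The tapetum, the innermost layer of the anther wall, secretes lipid and phenolic precursors of the outer wall, carriers that move them across the locule, and enzymes that free the microspores from their callose case. It then breaks down by programmed cell death, and its products coat the pollen. Known rice genes of this period code for lipid transfer proteins, fatty acid enzymes, BURP-domain proteins of the secretory bodies that line the locule, and proteases of tapetal death.

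The measured tapetum markers differed in the stage at which they were highest. Of 11 markers listed, 8 were measured, and 2 of these, C6 and AP25, are among the 61. The other 6 (TDR, EAT1, PTC1, CYP703A3, RTS and CP1) summed to 95.5 to 176 on the P1 arrays and 121 to 171 on the M3 arrays. Their sum was 49.6 to 101 in M2 and 127 to 192 in P2, and 2.24 to 4.64 in P3. RTS made up most of it in P2, with 121 to 183, and was at most 0.308 in M3. Without RTS the other 5 summed to 49.4 to 101 in M2, 121 to 171 in M3, 20.6 to 91.7 in P1, 5.41 to 9.52 in P2 and 1.52 to 3.95 in P3. TDR was highest in M2, RTS in P2 and the other 4 in M3. The 3 measured late pollen markers (ADF1, EXPB9 and EXPB10) summed to at most 0.867 on any M3 or P1 array, against at least 102 on every P2 array. The 7 measured meiocyte markers summed to 5.33 to 6.24 in P1 and 6.37 to 8.01 in M3, against 52.1 to 58.9 over An1 and Mei1. MEL1 made up most of the early sum, with means of 45.8 in An1 and 40.2 in Mei1, against 0.802 in M3 and 0.524 in P1. PAIR2 changed less, with 6.53 in An1 and 9.04 in Mei1 against 4.63 in M3 and 3.41 in P1. The rest averaged at most 1.8 in any stage. The 3 measured genes of green tissue (RBCS, CAB2R and RCA) summed to 30.6 to 89.5 on the M3 and P1 arrays. Their sum was 2.04 to 47.4 on all others. CAB2R made up most of the M3 and P1 sums, with means of 58.2 in M3 and 59.2 in P1. RBCS had 4.19 in M3 and 6.38 in P1, and RCA had 1.75 and 1.52. The part of these markers in the results was not tested.

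**Figure D1:**
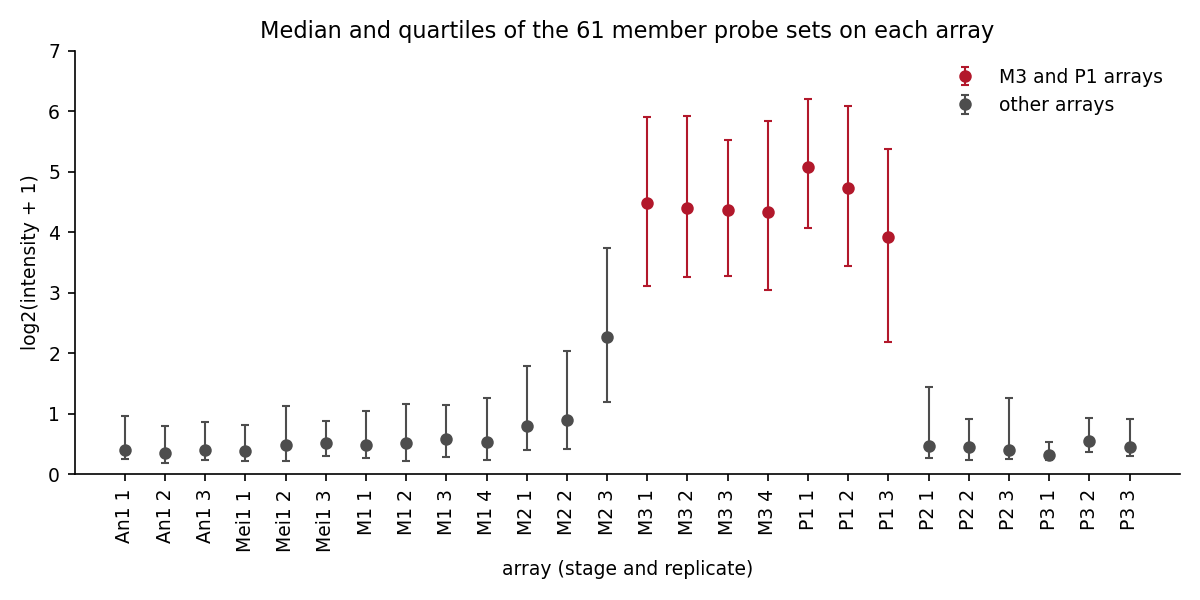
Level of the 61 probe sets on each of the 26 arrays, in log2(intensity + 1); points are medians over the probe sets and bars run between their quartiles. The M3 and P1 arrays, in red, have medians from 3.92 to 5.07, and the highest of the other arrays is M2 replicate 3 at 2.27.

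Over the 61 probe sets, the median stage mean on the log2 scale was 0.39 in An1, 0.43 in Mei1, 0.55 in M1, 1.45 in M2, 4.43 in M3, 4.43 in P1, 0.45 in P2 and 0.44 in P3. The median over all 57194 probe sets stayed between 0.33 and 0.48. These levels follow from the rule and are given as a description. The margin over the next stage ran from 1.56 to 4.57, with a median of 1.96. It was at least 3 for 8 probe sets and under 2 for 33. The next highest stage was M2 for 41, P2 for 10, P3 for 6, An1 for 2 and Mei1 for 2. On 47 of the 61, every M3 and P1 array lay above every array of the other stages. Over all probe sets 0.675% did so, and nothing is read from this share, since the rule chose that pattern. Nearest the limit and inside it were a probe set of LOC4347238 (margin 1.56) and 2 probe sets with no gene (1.58 and 1.59). Just outside were LOC4350728 (1.496), LOC4325700 (1.48) and LOC4328545 (1.45).

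Among the 10 genes with a symbol, those for channel proteins came from the NIP family of aquaporin-like proteins, whose members carry water and small uncharged solutes across membranes. NIP4-1 (LOC4326119) had the largest margin of all 61, 4.57. Its levels were 103, 98.5 and 51.6 on the P1 arrays and 94.3, 94.0, 70.1 and 79.9 on the M3 arrays. In M2 they were 0.317, 0.205 and 24.6, so that 1 of the 3 M2 arrays already carried it. No array of the other 5 stages exceeded 0.393. NIP1-1 (LOC4328814) was never that low. It measured 76.3, 84.1 and 68.4 in P1 and 38.8, 35.5, 62.2 and 52.0 in M3, over 7.63 ± 0.189 in An1 (SD, n = 3) and 13.7 ± 6.15 in P2 (n = 3). The NIP1-1 arrays of P1 all lay above those of M3, but the difference did not pass (log2 difference 0.71, adjusted p = 0.354).

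Secreted lipid and wall proteins formed the next group. C6 (LOC4350790), a lipid transfer protein of the tapetum needed for the pollen wall and the bodies that carry sporopollenin, had 135, 166 and 137 in P1 and 70.7, 127, 97.3 and 129 in M3. It was still at 48.9, 19.1 and 21.8 in P2 and ended at 0.262, 0.594 and 0.404 in P3. Before M3 the highest C6 value on any array was 4.81, in M2 replicate 3. BURP13 (LOC4345929), listed also as RAFTIN1, codes for a BURP-domain protein of the tapetum that is needed for pollen development. It had 100, 90.7 and 100 in P1 and 63.1, 81.9, 68.9 and 99.0 in M3. It came on gradually, with 5.56, 14.5 and 19.7 in M2, and it stayed at 46.7, 12.7 and 14.7 in P2. Both were thus still measured in whole anthers at the bicellular pollen stage.

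Lipid enzymes were represented by KCS20 and pla2-II. KCS20 (LOC4348632), a ketoacyl-CoA synthase that by its family elongates fatty acids, had 65.2, 61.7 and 26.8 in P1 and 56.8, 57.0, 54.0 and 61.9 in M3. After the peak it had 0.440 ± 0.156 in P2, under the base level of 4.95 ± 0.377 in An1 (n = 3 each). The gene pla2-II (LOC4332319), for a phospholipase A2, had 14.1, 6.34 and 2.70 in P1 and 11.1, 12.7, 5.58 and 6.39 in M3, and at most 3.04 elsewhere. That 3.04 was again M2 replicate 3, and it lay above the lowest P1 array.

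AP25 (LOC4331874) codes for an aspartic protease that takes part in tapetal cell death in rice. It had 116, 104 and 27.2 in P1 and 130, 128, 107 and 128 in M3. AP25 was also present in An1 (10.1 ± 0.397, n = 3) and Mei1 (10.5 ± 1.05, n = 3), was at 2.51, 5.75 and 52.7 in M2, and was at most 0.204 in P2. The groups overlap, because M2 replicate 3 lay above P1 replicate 3.

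The remaining genes with a symbol belong to primary and secondary metabolism. HXK6 (LOC4338010), a hexokinase listed also as HXK7, had 45.6, 25.6 and 5.0 in P1 and 65.9, 58.8, 30.9 and 36.3 in M3. Its lowest P1 value was under the 10.3 of M2 replicate 3. CHS (LOC4350636) is chalcone synthase, the entry enzyme of flavonoid synthesis. It had 41.2, 32.4 and 16.6 in P1 and 35.4, 44.6, 34.0 and 24.1 in M3, and kept 4.61 ± 1.85 in P2 (n = 3). The array carries 4 other probe sets for CHS, with margins of only -0.36 to 1.01. CSase (LOC4334101), listed also as rcs3, is a cysteine synthase and was present throughout. It had 86.6, 67.3 and 40.8 in P1 and 67.6, 75.5, 52.0 and 62.2 in M3, over 10.8 ± 0.784 in An1 and 10.01 ± 2.92 in P2 (n = 3 each).

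**Figure D2:**
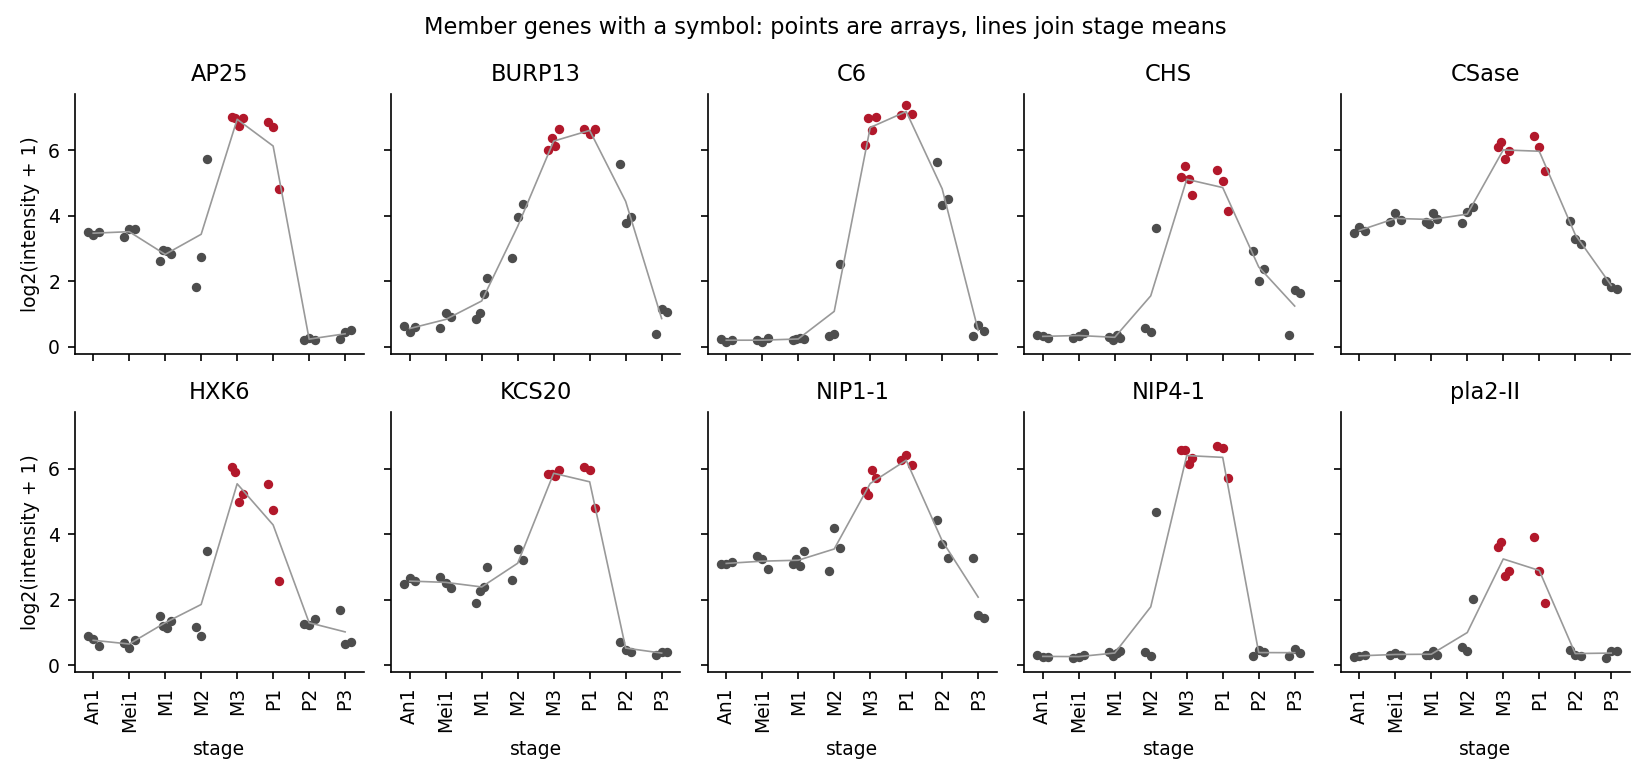
Levels of the 10 genes with a symbol across the 8 stages in log2(intensity + 1); each point is an array, lines join the stage means, and M3 and P1 are red. AP25, CSase, KCS20 and NIP1-1 start from a base level in An1, while the others start near 0. For AP25, C6, CHS, HXK6, NIP4-1 and pla2-II 1 array of M2 stands above the other 2.

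Genes known only by a locus number made up most of the largest margins. LOC4338574 (margin 4.52) had 97.3, 126 and 99.9 in P1 and 2.77, 70.7, 41.4 and 79.3 in M3, and its stage mean was at most 0.358 elsewhere. LOC4346354 (margin 3.76) had means of 157 ± 26.1 in P1 (n = 3) and 147 ± 38.7 in M3 (n = 4). LOC4343628 averaged 103 ± 10.2 in P1 and 94.1 ± 13.9 in M3. LOC4336712 averaged 50.4 ± 30.8 in P1 and 63.5 ± 19.2 in M3. LOC4351870 averaged 54.1 ± 24.7 in P1 and 48.2 ± 13.8 in M3. Their margins lay between 3.88 and 4.04. LOC4330227 differed from these in its early level, with 0.799 ± 0.494 in M2 against 2.34 ± 0.526 in An1 (n = 3 each). At its peak it had 59.9 ± 17.3 in P1 (n = 3) and 38.1 ± 8.07 in M3 (n = 4).

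A base level before meiosis was held by 8 of the 61, whose means were at least 2 on the log2 scale in both An1 and Mei1. They are AP25, KCS20, CSase, NIP1-1, LOC4336091, LOC4341604, LOC4336202 and LOC4328618. After the peak the P2 mean was under the An1 mean for 7 of the 8, the exception being NIP1-1. The gap was widest for AP25, KCS20 and LOC4336091, with P2 means of 0.174, 0.440 and 0.976 against An1 means of 10.1, 4.95 and 10.8. For CSase it was small beside the spread, as its values above show. At the other end, 36 of the 61 had means under 1 in An1, Mei1, M1 and P3 alike.

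Arrays of one stage did not agree equally well at the flanks of the peak. M2 replicate 3 was the highest of the 3 M2 arrays for 45 of the 61 probe sets. The median over the 61 was 2.27 on that array, against 0.80 and 0.90 on M2 replicates 1 and 2. It exceeded the mean of the other M2 arrays by 1 log2 unit or more for 44.3% of the 61, against 0.505% of all probe sets. Over all probe sets its nearest array of another stage was M3 replicate 3 (r = 0.946). Those of M2 replicates 1 and 2 were M1 arrays. M2 replicate 3 still correlated better with the other M2 arrays (mean r = 0.9608). The M2 array with the lowest mean correlation to its own stage was replicate 2 (0.9485, against 0.9528 with M1 replicate 4). The sum of the 6 tapetum markers outside the 61 was 101 on M2 replicate 3, against 49.6 and 73.1 on the other M2 arrays. CYP703A3 made up most of that sum, with 65.4 on M2 replicate 3 against 24.5 and 39.8 on replicates 1 and 2. Of the 6 markers, 4 were highest on M2 replicate 3, while TDR and RTS were lowest there.

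P1 replicate 3 stood apart at the other flank. It was the lowest P1 array for 52 of the 61, with a median of 3.92 against 5.07 and 4.73 on P1 replicates 1 and 2. It lay 1 log2 unit or more under the mean of the other P1 arrays for 47.5% of the 61, against 0.638% of all probe sets. Of the 6 tapetum markers outside the 61, 5 were also lowest on that P1 array, with a sum of 20.6 against 91.7 and 72.7 on P1 replicates 1 and 2. RTS was highest there, with 156 against 3.87 and 97.8. The part of these markers in the low values was not tested. The 4 M3 arrays had medians between 4.33 and 4.48. In P2, replicate 1 was the highest array for 39 of the 61. Its nearest array of another stage was P1 replicate 3 (r = 0.897), under its mean of 0.9432 with the other P2 arrays. That of P2 replicates 2 and 3 was P3 replicate 1. The late pollen markers summed to 102 on P2 replicate 1, against 283 and 315 on the other P2 arrays.

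The rule did not fix which of P1 and M3 was higher, so that contrast was tested with limma. The fit took all 47799 probe sets that passed a filter on low values. All 61 had to pass, because the rule itself sets their M3 and P1 means above that filter. Some of them passed only through those 2 stages. The shares over all probe sets tested, for this and the later contrasts, were not matched to the 61 in level. Here and below a call needs an adjusted p under 0.05 and a log2 difference of at least 1. Of the 61, 6 were called higher in P1 than in M3, or 9.84%, against 0.590% of all probe sets tested. None was called lower, against 0.661% of all. At an unadjusted p under 0.05, 16 were higher and 2 were lower in P1. The median difference was 0.12 log2 units, against -0.01 over all probe sets tested.

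The 6 called higher in P1 included 3 genes, all without a symbol. LOC4348110 had 65.5, 102 and 119 in P1, against 4.44, 22.8, 26.0 and 40.5 in M3 (log2 difference 2.26, SE 0.44, adjusted p = 0.00239). LOC4341604 had 57.7, 94.5 and 77.1 in P1, against 21.4, 12.4, 22.0 and 37.1 in M3 (log2 difference 1.74, SE 0.35, adjusted p = 0.00326). LOC4336648 had 18.5, 23.0 and 24.0 in P1, against 7.90, 7.08, 10.1 and 9.99 in M3 (log2 difference 1.23, SE 0.18, adjusted p = 0.000154). In each of the 3 the lowest P1 array lay above the highest M3 array. The probe set of LOC4336648 is of the type that can bind related transcripts.

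Of the other 3 probe sets, the first is assigned to several genes and the rest to none. Their names stand on the axis of the plot of P1 minus M3. The first and the second are of a type whose probes can match several transcripts. Among the 61, 7 are of that type and 5 of the type of the LOC4336648 probe set. The first had 26.0, 31.8 and 44.9 in P1, against 2.78, 7.79, 5.41 and 5.62 in M3, the largest difference of the 61 (2.49, SE 0.19, adjusted p = 2.23e-08). The second had 32.8, 55.0 and 50.7 in P1, against 8.67, 3.82, 6.66 and 18 in M3 (log2 difference 2.35). The third had 8.80, 6.40 and 4.59 in P1, against 0.529, 3.11, 3.53 and 3.63 in M3 (log2 difference 1.13). The difference of the third was under the threshold without M3 replicate 1 (0.75) or without P1 replicate 1 (0.93).

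P1 replicate 3 was the lowest P1 array for 1 of these 6 and for 51 of the other 55. A low value on that array also makes a call of higher in P1 less likely, so these counts are not independent of the calls. LOC4338574 had a log2 difference of 1.80 and arrays that did not overlap but was not called (adjusted p = 0.0859), with M3 replicate 1 at 2.77 and the other M3 arrays at 41.4 or more. None of the 10 genes with a symbol was called. Their differences ran from -1.26 for HXK6 (95% interval -2.36 to -0.16, adjusted p = 0.237) to 0.71 for NIP1-1 (-0.01 to 1.43). For NIP4-1 the interval was -1.30 to 1.19, and for CSase it was -0.46 to 0.38. Without P1 replicate 3, 11 of the 61 were called higher in P1. Without P1 replicate 1, 5 were higher and 2 were lower, HXK6 (-1.89, adjusted p = 0.0387) and LOC4350557 (-1.75, adjusted p = 0.00814).

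**Figure D3:**
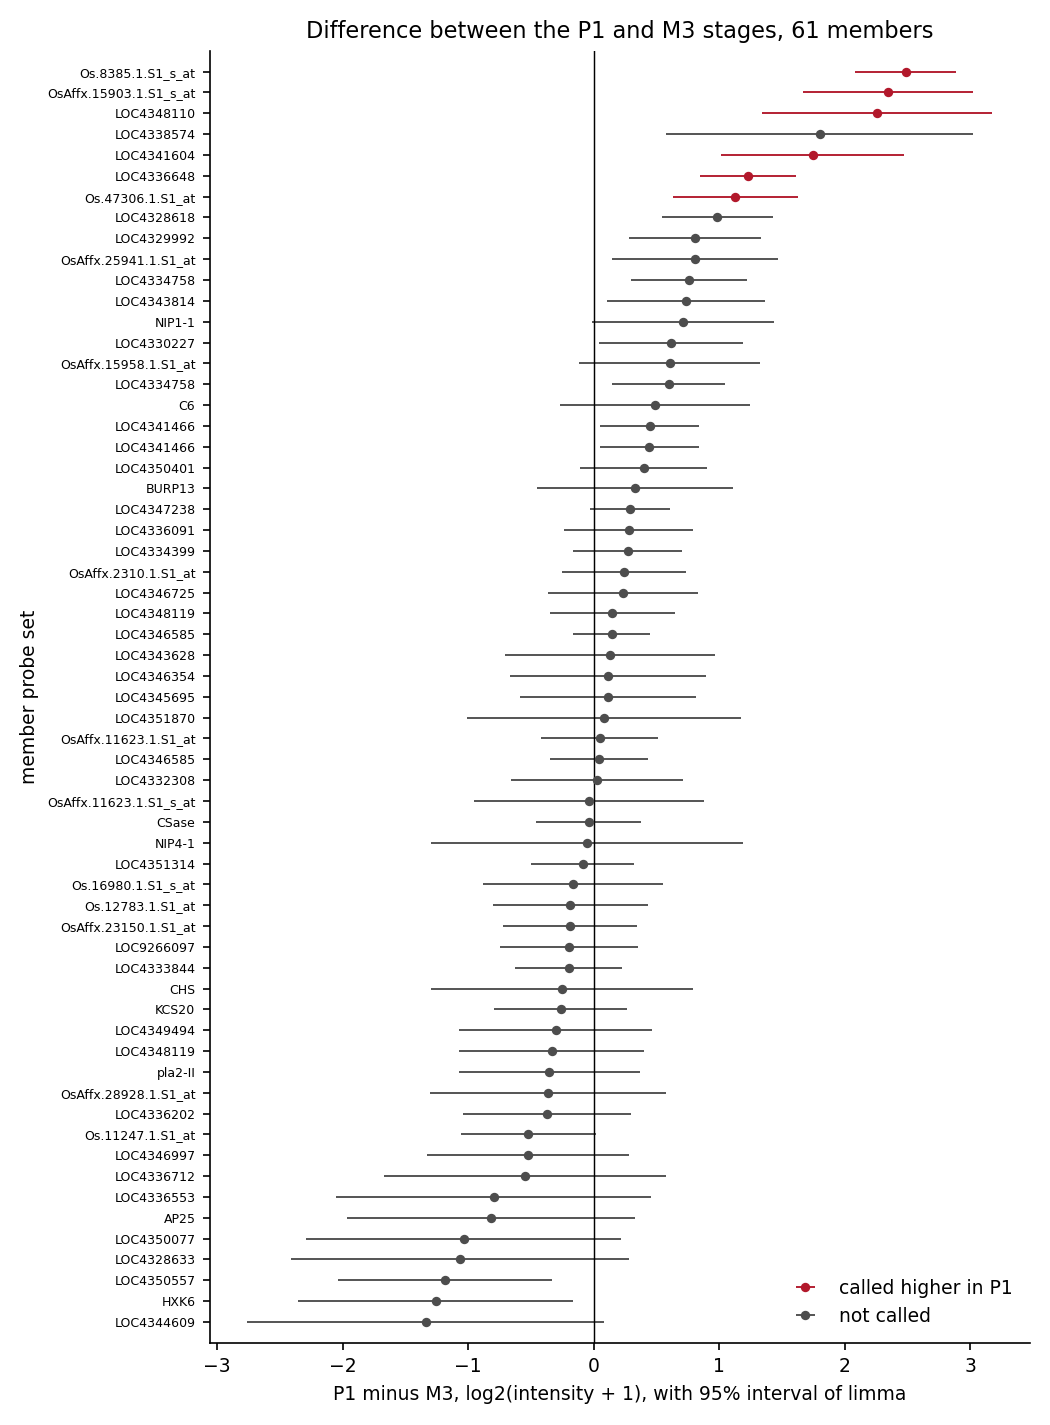
Difference between P1 and M3 for the 61 probe sets, in log2(intensity + 1), with limma's 95% intervals; a value above 0 is higher in P1, and red marks the 6 that were called. The differences run from -1.34 for LOC4344609 to 2.49 for the probe set that names several genes. Genes are named by symbol, then by locus number, then by probe set.

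How early the transcripts came on was read from M2 minus M1, zygotene to pachytene against leptotene, whose order the rule also left free. The difference was above 0 for 55 of the 61, with a median of 0.58 against 0.05 over all probe sets tested. By limma, 10 (16.4%) were called higher in M2, against 0.580% of all, and 0 were called lower, against 0.268%. At an unadjusted p under 0.05, 26 were higher and 0 were lower. The largest difference was that of a probe set with no gene assigned, which had 15.3, 16.9 and 71.8 in M2, against 0.0401, 0.0772, 0.0782 and 0.0881 in M1 (log2 difference 4.69, SE 0.30, adjusted p = 1.16e-09). It then reached 109 ± 7.29 in M3 (n = 4). Another probe set without a gene had 4.45, 5.71 and 41.8 in M2, against at most 0.260 in M1 (log2 difference 3.24).

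Among the genes, LOC4346354 had 3.98, 7.75 and 26.6 in M2, against 0.295, 0.463, 0.579 and 0.788 in M1 (log2 difference 2.80, adjusted p = 3.74e-05). LOC4343814 had 2.10, 6.49 and 8.46 in M2, against 0.108 to 0.135 in M1 (log2 difference 2.43). BURP13 was the 1 gene with a symbol to pass, with 13.3 ± 7.13 in M2 (n = 3) against 1.80 ± 1.12 in M1 (n = 4), a log2 difference of 2.28 (SE 0.38, adjusted p = 0.00039). Besides these, LOC4343628, LOC4348119, LOC4349494, LOC4346725 and LOC4341466 were called, with differences of 1.66 to 1.18. For LOC4348119 and LOC4341466 only 1 of their 2 probe sets passed, and the others had differences of 0.64 (adjusted p = 0.0975) and 0.90 (adjusted p = 0.00416), both under the limit of 1. Without M2 replicate 3, 8 were called, the median was 0.15 and LOC4343628 was not called (1.02, adjusted p = 0.0772). Without M2 replicate 1 or 2, 14 were called. C6 (0.84, adjusted p = 0.149) and AP25 (0.61, adjusted p = 0.499) were not called with all arrays.

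The 2 flanks of the peak were compared as P2 minus M2, the bicellular pollen stage against zygotene to pachytene. Of the 61, 16 (26.2%) were called lower in P2 by limma, against 3.99% of all probe sets tested, and 3 (4.92%) were called higher, against 4.65%. The share called higher was thus near that of all probe sets. The median difference was -0.63, against -0.03 over all. The lower ones included transcripts with a base level before the peak. LOC4336091 had 1.73, 0.427 and 0.771 in P2, against 13.4, 21.9 and 23.5 in M2 (log2 difference -3.40, SE 0.26, adjusted p = 9.84e-10). AP25 had 0.154, 0.204 and 0.164 in P2, against 2.51, 5.75 and 52.7 in M2 (-3.21, adjusted p = 0.00016). KCS20 had 0.618, 0.379 and 0.325 in P2, against 5.01, 10.7 and 8.23 in M2 (-2.59, adjusted p = 1.04e-07). For each of these 3 genes the P2 and M2 arrays did not overlap.

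Transcripts that had come on by the M2 stage were also among the lower ones. The probe set without a gene that led M2 minus M1 had 0.138 ± 0.0342 in P2 against 34.7 ± 32.2 in M2 (n = 3 each, -4.61), the largest difference of the 61. In all, 7 of the 10 called higher in M2 than in M1 were called lower in P2 than in M2. Both calls use the M2 arrays, with opposite sign, so a high M2 value favours both. The matching share over all probe sets was not computed, and nothing is read from this overlap. The 3 called higher in P2 were C6, LOC4332308 and LOC4348110. C6 had 29.9 ± 16.5 in P2 against 1.79 ± 2.62 in M2 (n = 3 each, log2 difference 3.75, SE 0.39, adjusted p = 8.8e-08). LOC4332308 had 12.5, 3.11 and 5.72 in P2, against 0.830, 0.569 and 2.70 in M2 (1.71, adjusted p = 0.000555). LOC4348110 (1.22, adjusted p = 0.0481) lost its call without most single arrays. Without M2 replicate 3, 12 were called lower and 4 higher, the median was -0.08, and LOC4336553, LOC4344609 and LOC4346354 were among those no longer called.

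**Figure D4:**
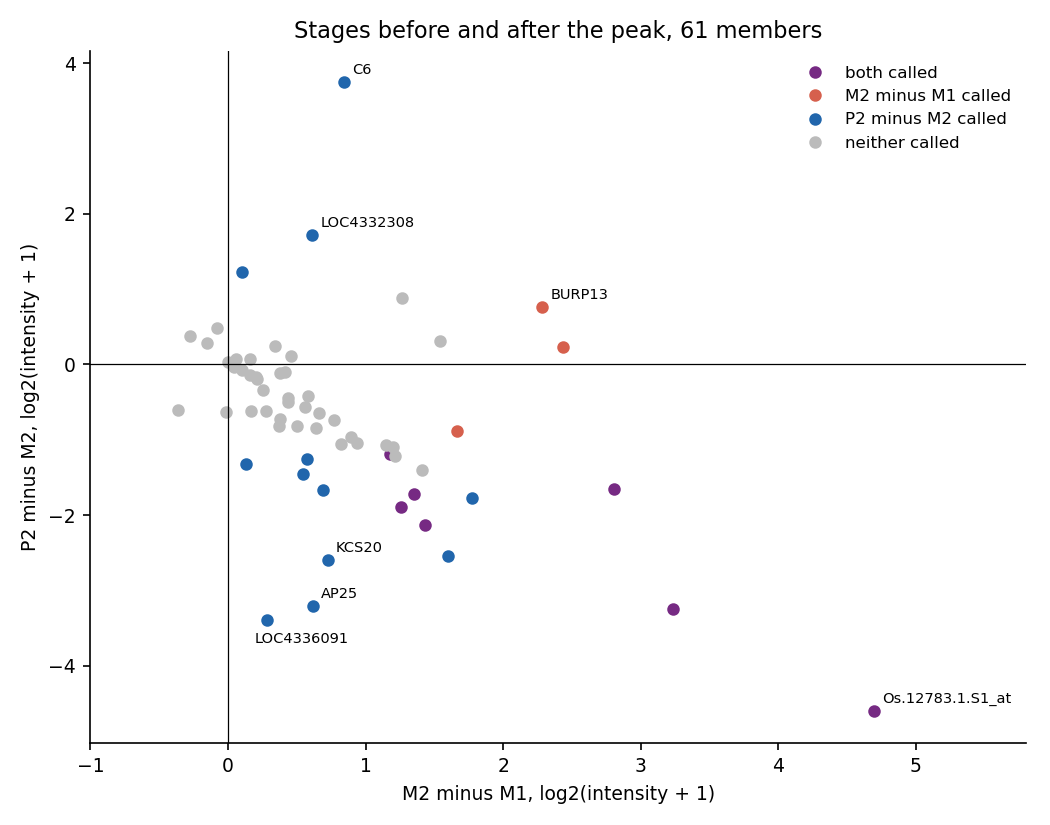
Each of the 61 probe sets by its M2 minus M1 difference (horizontal) and its P2 minus M2 difference (vertical), both in log2(intensity + 1); colours show which of the differences were called. Both axes use the M2 arrays, so the 2 differences are not independent. C6 lies at the top with a P2 minus M2 difference of 3.75, and the probe set without a gene that led M2 minus M1 at the lower right with 4.69 and -4.61.

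The last comparison was of P3 with P2, anthers with mature against bicellular pollen. By P2 the mean was already under 1 on the log2 scale for 43 of the 61. The median P3 minus P2 difference was 0.02, against 0.12 over all probe sets tested. By limma, 9 (14.8%) were called lower in P3, against 4.07% of all, and 1 (1.64%) was called higher, against 4.22%. C6 had 0.262, 0.594 and 0.404 in P3, against 48.9, 19.1 and 21.8 in P2 (log2 difference -4.33, SE 0.39, adjusted p = 2.22e-08). BURP13 had 0.305, 1.22 and 1.07 in P3, against 46.7, 12.7 and 14.7 in P2 (-3.58, adjusted p = 4.78e-07). NIP1-1 had 8.63, 1.89 and 1.71 in P3, against 20.6, 12.0 and 8.64 in P2 (-1.72), and CSase had 3.06, 2.57 and 2.41 against 13.3, 8.83 and 7.86 (-1.55, adjusted p = 7.71e-06). The other 5 are LOC4332308, LOC4343814, LOC4343628, LOC4346354 and LOC4348110, with differences of -2.28 to -1.24.

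LOC4346725 was the 1 called higher in P3, with 11.2, 2.88 and 4.55, against 0.391, 1.12 and 1.52 in P2 (log2 difference 1.71, adjusted p = 0.000136). It thus had a second, lower level in anthers with mature pollen after 36.6 ± 12.6 in P1 (n = 3). P3 replicate 1 correlated better with P2 replicate 3 (r = 0.899) than with the other P3 arrays (mean r = 0.854). Without it the counts were 8 lower and 1 higher. Without P2 replicate 1 the count of lower calls was 6, and LOC4343628, LOC4346354 and LOC4348110 were the ones lost.

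Other known genes of the pollen wall and the tapetum were set beside these, from lists of symbols. Of 25 listed pollen wall and tapetal lipid genes 5 were measured, C6 and BURP13 among them, and of 15 listed tapetum regulators and death genes 8 were, AP25 among them. None of 7 listed callose genes could be matched to a probe set. The 10 measured genes outside the 61 missed the rule in different ways. CYP703A3, a fatty acid hydroxylase of sporopollenin synthesis, was already at 43.2 in M2 against 3.96 in M1, and was lower in P1 than in M3 (34.3 against 92.4, log2 difference -2.0, adjusted p = 0.018). Its P1 arrays had 54.7, 44.2 and 4.04, against 81.3 to 102 in M3. The size of that difference thus leans on P1 replicate 3, and the value without that array is not given here. C4, a tapetal lipid transfer protein gene, had 128 in P1 and 145 in M3 but was already at 116 in M2, against 9.29 in M1 (M2 minus M1 4.51, adjusted p = 3.17e-05). RTS, a gene needed for male fertility, came on a stage later, with 85.8 in P1 against 0.177 in M3, and 144 in P2.

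Among the regulators, PTC1, a PHD-finger protein of tapetal development and death, was higher in M2 than in M1 (6.20 against 0.245, log2 difference 2.40) and lower in P1 than in M3 (1.35 against 10.1, -2.28, adjusted p = 1.29e-05). TDR, a bHLH regulator of tapetal breakdown, was higher in M2 than in M1 (21.0 against 9.93, 1.08) and lower in P2 than in M2 (3.34 against 21.0, -2.37). EAT1, a bHLH regulator of AP25 in rice, was lower in M2 than in M1 (2.96 against 9.29, -1.45, adjusted p = 0.00779) and had 12.2 in P1 and 16.5 in M3. CP1 was highest in M3, with 3.93, against 2.07 in P1 and 1.02 in M2. The rest of that list had no such peak. GAMYB ran from 7.14 in An1 to 21.5 in P1 and was at 21.2 in P3. API5 was highest in M1, with 10.7, and fell to 5.72 in P1 and 2.46 in P3. MADS3 was highest in P3, with 8.59, against 2.60 in M3 and 3.54 in P1. By limma, the pollen wall list, C6 and BURP13 included, had 1 called higher and 1 lower of 5 for P1 minus M3. For M2 minus M1 it had 3 higher of 5. The regulator list, AP25 included, had 1 called lower of 8 for P1 minus M3 (median -0.57). It had 2 higher and 1 lower of 8 for M2 minus M1 (median 0.40). Over all probe sets tested, 0.590% were higher and 0.661% lower for P1 minus M3, and 0.580% and 0.268% for M2 minus M1. For P2 minus M2 the pollen wall list had 2 higher and 2 lower and the regulator list 3 lower, against 4.65% and 3.99%. For P3 minus P2 they had 3 lower, and 1 higher and 1 lower, against 4.22% and 4.07%. Nothing is read from counts in lists this short.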

How the data were processed

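Anther RNA was hybridised to 26 arrays, 1 per sample. Values were deposited as linear intensity; over all 57381 probe sets the 75th percentile is 1 on each array, so the authors had divided each array by it. The submitters' processing notes name GCOS 1.3 without its step; background correction and detection calls are not given in the sources used here. Array medians ran from 0.241 to 0.428.

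Values were taken as log2(intensity + 1) after 187 control probe sets were left out. A fit of the 8 stages to the 26 arrays used limma 3.58.1 (R 4.3.3; eBayes with a trend on mean intensity). It took the 47799 probe sets (83.6%) for which at least 1 stage averaged more than the 40th percentile of the log2 data. Adjusted p-values are Benjamini-Hochberg over those. Tests are two-sided, and only contrasts whose direction the membership rule left free were tested. The fit was tested on simulated data. Python 3.11.15 made the tables and plots. Gene names came from the array's gene table and a RefSeq table of assembly ASM3414082v1, used for names alone; the first synonym that is not a clone name is the symbol.

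Names were set by rule: every member gene with a symbol, list members, and the probe sets nearest the limit. Loci without a symbol and probe sets without a gene were picked after their values were seen. The members and lists were chosen with earlier results of these data known. Planned promoter motifs were not analysed here. No 2 arrays hold identical values. Alternatives were the pseudocount, the filter, the normalization, the trend, array weights, the replicate block, the stages fitted, the margin and each array left out. P-values measure the spread between the arrays of a stage.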

Additional observations from a re-analysis of the deposited data

Results flagged for a closer look

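In stages with 4 arrays, M1 and M3, 62 sets of 4 values were examined for an array far from the other 3, and 5 were found; chance gives about 1 in 20. In M3, AP25 was at 107 on replicate 3, against 128 to 130 on the others, and the probe set without a gene that was called higher in P1 at 1.13 log2 units was at 0.529 on replicate 1, against 3.11 to 3.63. In M1, LOC4336091 was at 10.9 on replicate 1, against 17.1 to 17.9. C6 was at 0.209 on M1 replicate 3, against 0.164 to 0.170, and pla2-II was at 0.336 on the same array, against 0.227 to 0.245. The last 2 genes are near the bottom of the scale there.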

How the results depend on the processing

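The number of probe sets that meet the rule was 61. It was 31 with a pseudocount of 4 and 105 with 0.25, 141 with a margin of 1 and 28 with a margin of 2, and 64 with quantile normalization or with median-centred arrays. Leaving out 1 array gave 53 to 78, the most without P1 replicate 3. Of the 61, the count called higher in P1 than in M3 (6) was 10 with array weights and 5 to 11 without 1 array; the count called lower (0) was 0 to 2. The count called higher in M2 than in M1 (10) was 5 with a pseudocount of 4 and 8 to 14 without 1 array, and the count lower stayed 0. For P2 minus M2, the counts of 16 lower and 3 higher were 8 and 1 with a pseudocount of 4, and 12 to 24 and 2 to 4 without 1 array. For P3 minus P2, the 9 called lower were 5 when only the arrays of those stages were fitted and 6 to 11 without 1 array. The 1 called higher was 0 with a pseudocount of 4 or array weights, 2 with 0.25, and 1 or 2 without 1 array. All other settings left these counts within 1.5 times. Named members lost a call in 66 of the settings run for them and gained 1 in 5, and no called difference changed sign. LOC4348110 accounted for most losses of P2 minus M2, and it also lost P1 minus M3 when only those stages were fitted (adjusted p = 0.0682). The replicate numbers were not taken to pair the arrays. Over 85 pairs with the same number in different stages, the deviations from the stage mean had a median correlation of -0.01. The correlations ran from -0.29 to 0.54, and 17 were over 0.1. Pairs with different numbers were not compared, so pairing between some stages cannot be told from these values. With the replicate block, 7 were called higher in P1 than in M3, 9 higher in M2 than in M1, 15 lower and 2 higher in P2 than in M2, and 9 lower and 1 higher in P3 than in P2. The causes of these changes were not tested.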

Other observations

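Members that stood higher on M2 replicate 3 than on the other M2 arrays tended to stand lower on P1 replicate 3 than on the other P1 arrays. Over the 61 probe sets the 2 deviations correlated at r = -0.45 (Pearson) and -0.38 (Spearman), and over all probe sets tested at -0.21 (Pearson). The points share the same arrays and are not independent, so this is a description.

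Of the 44 member genes, no 2 lay within 10 genes of each other in the RefSeq gene order. More than 1 probe set was present for 7 of them. Both probe sets of LOC4341466, LOC4346585 and LOC4348119 met the rule, and so did 2 of the 3 of LOC4334758. For LOC4343814, LOC4347238 and CHS 1 probe set met it and the others had margins of 0.07, 0.05 and -0.36 to 1.01.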
